A study of Mus musculus with 9 samples.

Results

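The expression of 10 genes of iron handling and haem synthesis was followed in the developing brown adipose tissue of the mouse. The genes were *Tfrc*, *Slc11a2*, *Slc40a1*, *Fth1*, *Aco1*, *Ireb2*, *Alas1*, *Cpox*, *Ppox* and *Fech*, taken by their symbols from a table of 30915 genes, in which each symbol had a single value per array. They were chosen by their roles and with the log2 values of these arrays over the stages in view, so their levels and changes are a description and carry no test of their own. Brown adipose tissue, the heat-producing fat of mammals, was taken from wild-type C57Bl6J embryos that had received no treatment, at E14.5, E15.5 or E16.5, where the number is the embryonic day. A stage comprised 3 arrays. Each held RNA from its own pool of the tissue of 3 embryos, and the spread between arrays is therefore a spread between pools. Whole pieces of tissue were used, with no sorting of cells.

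Cells take up iron mainly as transferrin bound to the transferrin receptor, release it from endosomes, and either use it in mitochondria, store it in ferritin or export it through ferroportin. Mitochondria build haem and iron-sulphur clusters from it, and the cytochromes and iron-sulphur proteins of the respiratory chain need both. Brown adipocytes are rich in mitochondria and owe their colour largely to the haem of these cytochromes. Iron regulatory proteins bind stem-loops in messenger RNAs when iron is scarce, which protects the transferrin receptor message and blocks translation of ferritin, so that message levels alone do not give the protein levels.

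Promoter sequences are shown for the genes with the largest changes, *Tfrc* and *Alas1*, and for *Cpox*, whose E16.5 arrays disagreed. Promoter windows from RefSeq (mouse build GRCm38.p6), reaching from 250 bases before to 50 bases after an annotated start, were matched for 7 of the 10 genes, namely *Tfrc*, *Fth1*, *Aco1*, *Ireb2*, *Alas1*, *Ppox* and *Cpox*. They were searched on both strands for GCATGCG, the core of sites bound by nuclear respiratory factor 1, for ACGTG, the core of the hypoxia response element, for TGACG, the core of the cAMP response element, and for the GATA factor site AGATAA, the oestrogen-related receptor site AAGGTCA and the GC box GGGCGG. The first stretch below spans the outer start of *Tfrc* (chr16:32608889-32608918, plus strand), with ACGTG and TGACG in capitals. The second is the 200 bases before the outer start of *Alas1* (chr9:106247955-106248154, minus strand), with TGACG in capitals, and the third lies just inside that start (chr9:106247905-106247934, minus strand), where GCATGCG on both strands, with an overlap, makes the capitals. The last is the 150 bases before the start of *Cpox* (chr16:58670058-58670207, plus strand), with ACGTG in capitals. All are written 5′ to 3′.
Tfrc start: ggtgtACGTGcggaaggaagTGACGtagat
Alas1 upstream: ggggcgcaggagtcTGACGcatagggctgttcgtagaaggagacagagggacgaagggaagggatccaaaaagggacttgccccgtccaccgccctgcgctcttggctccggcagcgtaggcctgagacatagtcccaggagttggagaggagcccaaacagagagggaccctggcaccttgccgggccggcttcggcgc
Alas1 inner site: gcacccaaggCGCATGCGcggcggtcactc
Cpox upstream: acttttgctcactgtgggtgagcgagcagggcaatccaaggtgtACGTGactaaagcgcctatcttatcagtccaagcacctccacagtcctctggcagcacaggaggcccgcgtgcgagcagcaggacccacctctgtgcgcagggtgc

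GCATGCG was found in 3.58% of all 32851 promoter windows. Among the 7 matched genes it was found only in *Alas1*, the gene of the first haem enzyme, just inside its outer start. These letters had replaced a longer form of the site after matches had been seen, so the share does not measure how unusual that match is. ACGTG was found in 19.6% of all windows, and in those of *Tfrc* and *Cpox*. In *Tfrc* it began at position -2 of the outer start, and in *Cpox* at -106. TGACG was found in 20.8% of all windows and in those of *Tfrc*, *Fth1*, *Alas1*, *Ppox* and *Cpox*. AGATAA was found in 11.2% of all windows and, of the matched genes, in *Cpox* alone. AAGGTCA was found in 4.72% of all windows and in none of the matched genes, whereas GGGCGG was found in 35.7% and in those of *Tfrc*, *Fth1*, *Aco1*, *Ireb2*, *Alas1* and *Ppox*. *Slc11a2*, *Slc40a1* and *Fech* were not searched, so nothing is said of their promoters. Windows on a single chromosome were left out for the 10 genes but stayed among all 32851 windows. A gene without a matched window may therefore have lost it by this rule. These matches describe letters in the windows and do not show that a factor was bound.

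Values are log2 expression as deposited, made with RMA, and a difference of 1 is a doubling. The median over all genes lay between 4.79 and 4.85 on 8 arrays and was 5.05 on E16.5 replicate 2. On that array 1469 olfactory and vomeronasal receptor genes, which this tissue is not known to use, had a median of 3.66, against 3.16 to 3.29 on the other 8. This array stands apart from the rest. Of all genes, 2803 were higher and 3472 lower at E15.5 than at E14.5, and 3461 were higher and 2615 lower at E16.5 than at E15.5 (limma, adjusted p under 0.05). Of 13 brown adipocyte marker genes, 12 were higher at E16.5 than at E14.5 and 1 was lower, at -1.56, with a median change of 2.85. Of 11 skeletal muscle markers, 10 were lower, with a median change of -1.98. Over all genes 39.4% were called in that comparison. Without E16.5 replicate 2 the counts of 12 higher and 10 lower were found again, with a median change of -1.41 for muscle.

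*Tfrc* encodes the transferrin receptor, the main entry of iron into cells, and had the largest change of the 10 genes. It read 8.38, 8.16 and 8.32 at E14.5, 10.37, 10.42 and 10.56 at E15.5, and 11.06, 11.11 and 10.98 at E16.5. The 3 stages did not overlap, and every array of a later stage lay above every array of an earlier one. The level was 2.17 ± 0.09 higher at E15.5 than at E14.5 (SE), which is 4.49-fold, and 0.60 ± 0.09 higher at E16.5 than at E15.5, which is 1.51-fold. Over both days it was 6.80-fold higher. The second-day change minus the first-day change was -1.57 ± 0.16, and 5.21% of all genes were called in that comparison of the days. In pieces of whole tissue, a larger share of cells that carry a message and more of it per cell cannot be told apart.

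*Slc11a2* encodes DMT1, the divalent metal transporter that moves iron out of endosomes into the cytosol. Its level was 7.82, 7.98 and 7.87 at E14.5, 7.77, 7.84 and 7.88 at E15.5, and 8.06, 8.52 and 8.34 at E16.5. The first 2 stages overlapped, and all E16.5 arrays lay above all others. The change was -0.06 ± 0.11 on the first day, with a 95% interval from -0.30 to 0.19, and 0.47 ± 0.11 on the second day. The second-day change was 0.37 and that over both days 0.31 without E16.5 replicate 2. The second-day call was lost without E15.5 replicate 1, at 0.44, and the call over both days, 0.42 ± 0.11, was lost without E14.5 replicate 1, at 0.38.

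*Slc40a1* encodes ferroportin, the known exporter of iron from cells, and was the only one of the 10 genes with a negative change over both days, although *Ireb2* and *Cpox* both had -0.07 without E16.5 replicate 2. It read 7.84, 7.80 and 7.93 at E14.5, 7.49, 7.61 and 7.56 at E15.5, and 7.39, 7.86 and 7.34 at E16.5. All E15.5 arrays lay below all E14.5 arrays, and at E16.5 replicate 2 alone reached the E14.5 range. The first-day change was -0.31 ± 0.13 and the second-day change -0.02 ± 0.13, and neither was called. Without E16.5 replicate 2 the first-day change was -0.31 and called lower, and the second-day change was -0.18. The change over both days was -0.33 ± 0.13 and not called, but it was -0.49 and called lower without E16.5 replicate 2, and -0.31 and called lower after quantile normalisation. *Slc40a1* is also strongly expressed by macrophages that recycle red cells, and the summed linear level of 18 macrophage markers was 4221 to 4548 at E14.5, 2978 to 3267 at E15.5 and 2854 to 3323 at E16.5. Of these markers 1 was higher and 9 were lower at E16.5 than at E14.5, so that 55.6% were called, beside 39.4% of all genes. The part of macrophages in the *Slc40a1* values was not tested.

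*Fth1* encodes the heavy chain of ferritin, which oxidises iron for storage. Its values were 11.63, 11.66 and 11.64 at E14.5, 11.75, 11.78 and 11.86 at E15.5, and 12.08, 12.10 and 12.22 at E16.5. The stages did not overlap, although the steps were small. The level was 0.16 ± 0.08 higher at E15.5 than at E14.5, a change that was not called, and 0.33 ± 0.08 higher at E16.5 than at E15.5, which was called. The second-day call was lost after quantile normalisation, at 0.22, and without E15.5 replicate 1, at 0.31. Over both days the change was 0.49 ± 0.08, or 1.4-fold. Ferritin genes have near-identical copies in the genome, and how probes shared with such copies were treated is not given in the sources used here, so these values are uncertain.

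*Aco1* and *Ireb2* encode the iron regulatory proteins IRP1 and IRP2, and IRP1 acts as cytosolic aconitase when it carries an iron-sulphur cluster. *Aco1* read 10.62, 10.67 and 10.72 at E14.5, 11.21, 11.34 and 11.28 at E15.5, and 11.44, 11.28 and 11.54 at E16.5. All E15.5 arrays lay above all E14.5 arrays, while the E15.5 and E16.5 arrays overlapped. The change was 0.60 ± 0.09 on the first day and 0.15 ± 0.09 on the second, and only the first was called. Without E16.5 replicate 2 the second-day change was 0.22 and called. *Ireb2* read 9.44, 9.37 and 9.34 at E14.5, 9.34, 9.26 and 9.30 at E15.5, and 9.34, 9.62 and 9.29 at E16.5. The E15.5 arrays lay at or just below the lowest E14.5 array, E16.5 overlapped both other stages, and the single high value belonged to E16.5 replicate 2. Over both days *Ireb2* changed by 0.03 ± 0.10, with a 95% interval from -0.18 to 0.24, and *Aco1* by 0.74 ± 0.09. The difference between the changes of these genes was not tested.

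**Figure D1:**
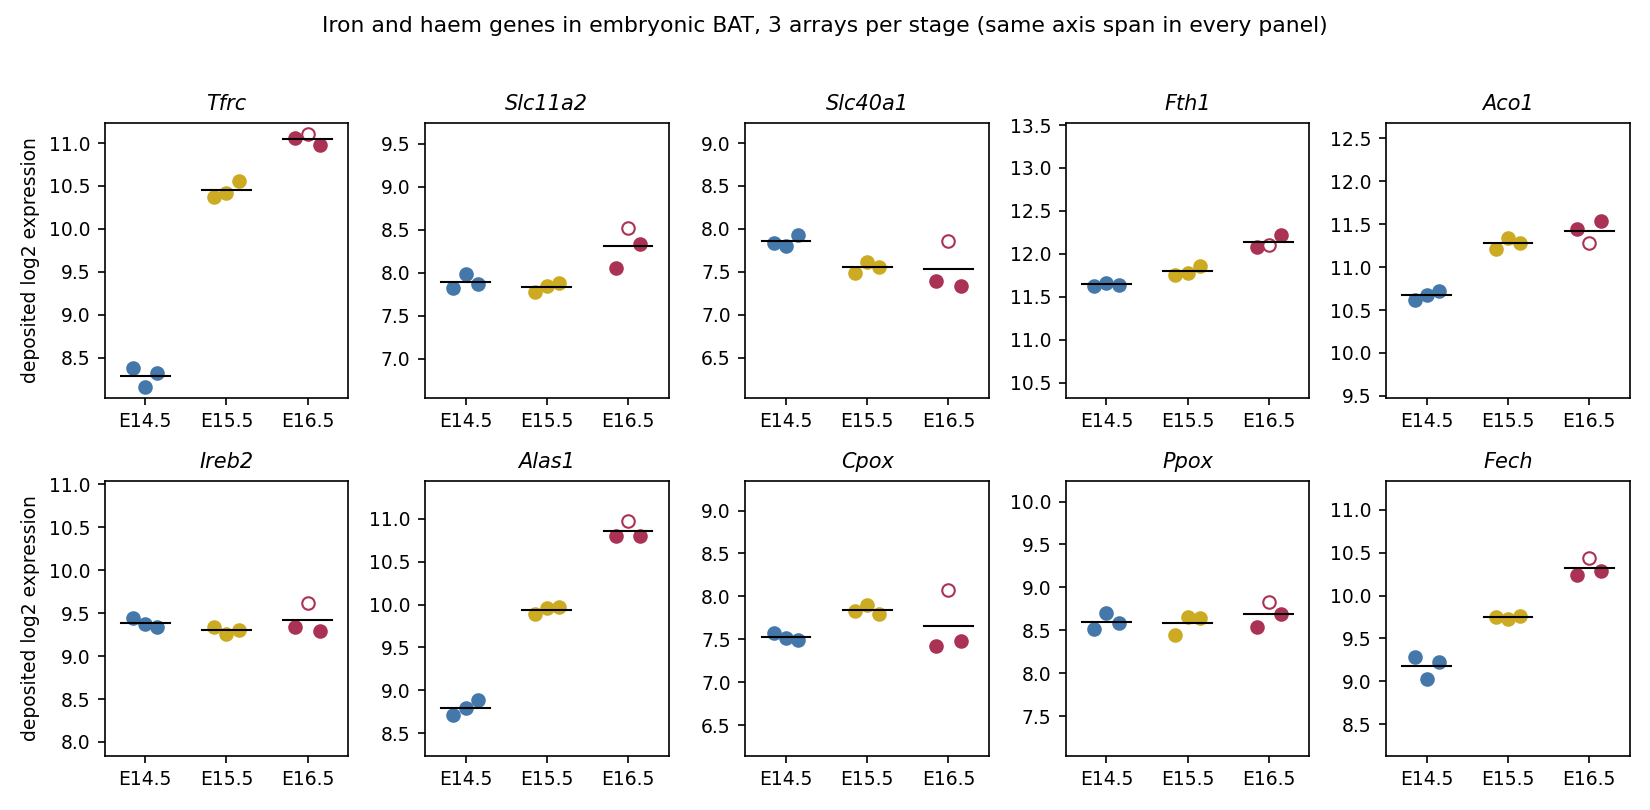
Log2 expression of each of the 10 genes (vertical axis) on every array (points) at E14.5, E15.5 and E16.5 (horizontal axis), with the stage mean as a line and E16.5 replicate 2 as an open point. *Tfrc*, *Alas1* and *Fech* stepped up at both stages, *Slc11a2* only at E16.5, and *Cpox*, *Slc40a1* and *Ireb2* had a high E16.5 replicate 2.

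*Alas1* encodes the housekeeping form of aminolevulinate synthase, the first and rate-limiting enzyme of haem synthesis. It read 8.71, 8.80 and 8.89 at E14.5, 9.89, 9.96 and 9.97 at E15.5, and 10.80, 10.97 and 10.80 at E16.5. The stages did not overlap and were separated by gaps far wider than the spread within a stage. The change was 1.14 ± 0.08 on the first day and 0.92 ± 0.08 on the second, which are 2.20-fold and 1.89-fold. Over both days the level was 4.17-fold higher at E16.5 than at E14.5.

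*Fech* encodes ferrochelatase, the last enzyme, which puts iron into protoporphyrin. Its values were 9.29, 9.03 and 9.23 at E14.5, 9.75, 9.73 and 9.76 at E15.5, and 10.24, 10.44 and 10.29 at E16.5. Again every array of a later stage lay above every array of an earlier stage. The change was 0.57 ± 0.09 on each day, and 2.20-fold over both.

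*Cpox* and *Ppox* encode coproporphyrinogen oxidase and protoporphyrinogen oxidase, the enzymes of the steps just before ferrochelatase. *Cpox* read 7.57, 7.52 and 7.49 at E14.5, 7.83, 7.90 and 7.80 at E15.5, and 7.42, 8.07 and 7.48 at E16.5. All E15.5 arrays lay above all E14.5 arrays, and at E16.5 replicate 2 was above every other array while its partners were near the E14.5 level. The first-day change was 0.32 ± 0.15 and the second-day change -0.18 ± 0.15, neither of them called. They were 0.32 and -0.39, and both were called, without E16.5 replicate 2. *Ppox* read 8.51, 8.70 and 8.58 at E14.5, 8.45, 8.65 and 8.64 at E15.5, and 8.54, 8.83 and 8.69 at E16.5. Its stages overlapped, and the change over both days was 0.09 ± 0.10, with a 95% interval from -0.14 to 0.31. That change was 0.01 without E16.5 replicate 2.

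Other enzymes of the pathway, none of them among the 10 genes, were set beside these. Over both days the changes, in pathway order, were 2.06 for *Alas1*, 0.88 for *Alad*, 1.36 for *Uros*, 1.27 for *Urod*, 0.13 for *Cpox*, 0.09 for *Ppox* and 1.14 for *Fech*. *Alad*, *Uros* and *Urod*, which carry out cytosolic steps, all rose at E16.5 against E14.5 (limma, adjusted p from 3.66e-07 to 3.07e-06). *Cpox* and *Ppox* had the smallest changes of these 7 over both days. The erythroid first enzyme, *Alas2*, was 0.66 ± 0.12 higher at E16.5 than at E14.5 (limma adjusted p = 0.00113).

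**Figure D2:**
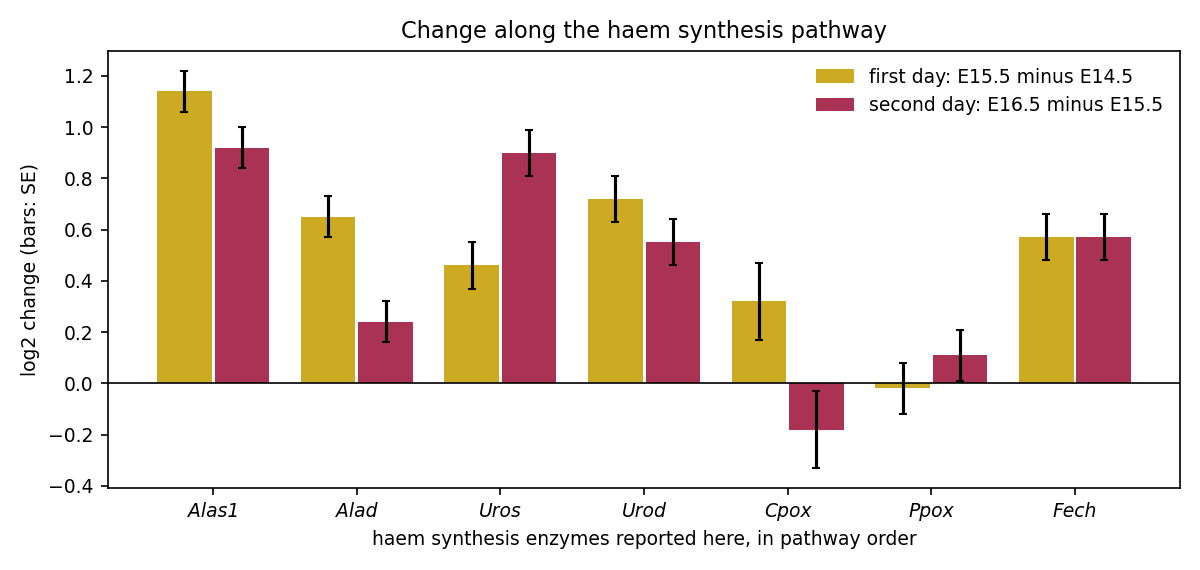
Log2 change of 7 enzymes of haem synthesis (vertical axis, bars with SE of the limma estimate) in the order of the pathway (horizontal axis), for E15.5 minus E14.5 and E16.5 minus E15.5. *Alas1* has the tallest bar on either day, with *Uros* close to it on the second, and *Ppox* stays near 0 on both.

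Counted together, 4 of the 10 genes were called higher and 0 lower at E15.5 against E14.5, where 20.3% of all genes were called in either direction, 9.07% higher and 11.2% lower. At E16.5 against E15.5, 5 were called higher and 0 lower, beside 19.7% of all genes, 11.2% higher and 8.46% lower. At E16.5 against E14.5, 6 were higher and 0 lower, beside 39.4% of all genes, 22% higher and 17.4% lower. The 4 of the first day were *Tfrc*, *Aco1*, *Alas1* and *Fech*, and those of the second day were *Tfrc*, *Slc11a2*, *Fth1*, *Alas1* and *Fech*. The median change of the 10 was 0.24, 0.24 and 0.45 in the 3 comparisons, against 0.03, 0.10 and 0.14 for all genes. The arrays of E15.5 and E14.5 did not overlap for 8 of the 10 genes, with E15.5 above in 6 and below in 2, beside 42.9% of all genes. Those of E16.5 and E15.5 did not overlap for 5, beside 32.5% of all genes, and those of E16.5 and E14.5 for 6, beside 50.2%, with the later stage above in each case. Over both days *Slc11a2* and *Fth1* stood 0.28 and 0.35 above the median change of all genes, and after quantile normalisation that median was 0.007. All 10 genes were brighter than the median gene, and of the genes at or above that brightness 37.5% were called on the first day, 35.6% on the second and 61.5% over both. These counts follow from the choice of the genes and are given as a description.

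**Figure D3:**
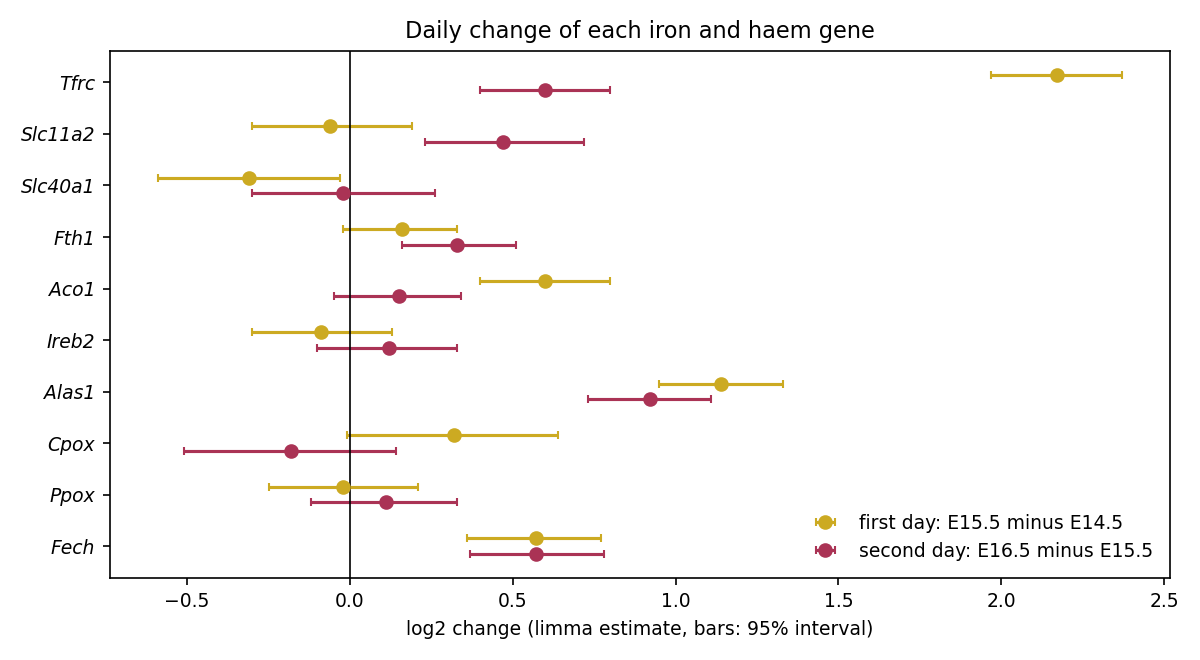
Log2 change of each of the 10 genes (horizontal axis, limma estimate with 95% interval) for E15.5 minus E14.5 and E16.5 minus E15.5. The first-day point of *Tfrc*, at 2.17, lies farthest to the right. *Tfrc*, *Alas1* and *Fech* have both intervals above 0, and both intervals of *Ireb2*, *Cpox* and *Ppox* span 0.

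Genes that bring iron to cells or into the tissue changed in both directions. Of 19 other genes of iron uptake and release, 8 were higher and 7 lower at E16.5 than at E14.5, with a median change of -0.02. That is 78.9% of the list, beside 39.4% of all genes and 61.5% of genes of at least median brightness. When only genes of that brightness were fitted, 5 of the list were higher and 8 lower. That fit left out the dimmer genes of the list, *Tfr2* among them, so these counts are not of all 19. *Steap4*, a metalloreductase that prepares iron and copper for transport, read 6.27, 6.35 and 6.06 at E14.5, 7.92, 8.18 and 8.33 at E15.5, and 9.81, 9.68 and 9.76 at E16.5. It was 3.52 ± 0.12 higher at E16.5 than at E14.5 (limma adjusted p = 3.79e-09). *Trf*, the gene of transferrin itself, rose by 1.45 ± 0.09 over the same span (limma adjusted p = 3.3e-07). *Tfr2*, a transferrin receptor known for iron sensing in the liver, rose by 1.23 ± 0.10 (limma adjusted p = 2.12e-06), at dim levels between 4.01 and 5.49. *Scara5*, a ferritin receptor, had a change of -1.74 ± 0.10 (limma adjusted p = 1.49e-07). The largest fall of the list was that of *Hfe2*, the gene of hemojuvelin, which is known from liver and skeletal muscle, with a change of -1.85 ± 0.17 (limma adjusted p = 5.96e-06). It, *Steap2*, *Slc39a14*, *Slc39a8*, *Cybrd1* and *Bmp6*, which were also lower, are named here after their values were seen.

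Among 8 genes of iron storage, chaperoning and sensing, 1 was higher and 2 were lower at E16.5 than at E14.5, that is 37.5% of the list beside 39.4% of all genes, and after quantile normalisation 1 was higher and 4 lower. *Ftl1*, the ferritin light chain, read 7.03, 6.81 and 6.97 at E14.5, 5.95 to 6.43 at E15.5, and 5.59, 5.78 and 5.67 at E16.5, a change of -1.26 ± 0.13 over both days (limma adjusted p = 1.31e-05). Its heavy chain partner *Fth1* moved the other way, and for *Ftl1* too the near-identical copies leave the values uncertain. *Ncoa4*, which carries ferritin to autophagy, rose by 0.50 ± 0.07 (limma adjusted p = 0.000204). *Pcbp4*, of the family of poly(C)-binding proteins that includes iron chaperones, had a change of -1.57 ± 0.11 (limma adjusted p = 6.79e-07). *Pcbp2*, a known iron chaperone, changed by -0.07 ± 0.07 (limma adjusted p = 0.464), and by -0.21 after quantile normalisation, where it was called lower (limma adjusted p = 0.0112).

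Genes of mitochondrial iron import and the remaining haem synthesis steps were mostly higher. Of 14, 11 were higher and 0 lower at E16.5 than at E14.5, with a median change of 1.02, beside 39.4% of all genes called and an all-gene median of 0.14. After quantile normalisation 11 were higher and 1 lower. *Tspo*, a protein of the outer mitochondrial membrane that binds porphyrins, read 7.50, 7.41 and 7.51 at E14.5, 9.34, 9.32 and 9.32 at E15.5, and 10.87, 10.87 and 10.80 at E16.5, and rose by 3.37 ± 0.07 (limma adjusted p = 4.19e-10). *Clpx*, a mitochondrial unfoldase known from yeast to activate aminolevulinate synthase, rose by 2.13 ± 0.09 (limma adjusted p = 1.39e-08). *Tmem14c*, needed for porphyrin import into mitochondria in mouse erythroid cells, rose by 1.56 ± 0.09, and the transporter *Abcb6* by 1.29 ± 0.08 (limma adjusted p = 1.07e-07 and 3.29e-07). The mitochondrial iron importer *Slc25a28* rose by 0.88 ± 0.10 (limma adjusted p = 2.57e-05), while its erythroid relative *Slc25a37* changed by -0.04 ± 0.11 (limma adjusted p = 0.797), or by -0.16 without E16.5 replicate 2. That pair, like *Alas2*, was named after its values were seen.

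All 3 genes that build haem a or attach haem to cytochrome c rose, with a median change of 1.45. *Cox15* and *Cox10*, which convert haem for cytochrome oxidase, rose by 1.53 ± 0.10 and 1.16 ± 0.11, and *Hccs*, which attaches haem to cytochrome c, by 1.45 ± 0.09 (limma adjusted p = 3.81e-07, 7.24e-06 and 2.4e-07). Of 31 genes of iron-sulphur cluster assembly, 26 were higher and 2 lower, with a median of 0.92. Calls made up 90.3% of this list, beside 39.4% of all genes and 61.5% of those of at least median brightness. The cysteine desulphurase *Nfs1*, which supplies the sulphur, rose by 1.88 ± 0.12, and *Isca2* and *Bola3*, late factors of mitochondrial assembly, by 1.96 ± 0.08 and 1.70 ± 0.07 (limma adjusted p = 2.73e-07, 8.54e-09 and 1.96e-08). *Cisd3*, an iron-sulphur protein of the mitochondrion, rose by 2.45 ± 0.09 (limma adjusted p = 7.8e-09). The 2 lower genes were *Ndor1* and *Mms19*, of the cytosolic branch, with changes of -0.50 and -0.48, named after their values were seen.

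Haem breakdown and transport was mixed, with 6 of 13 genes higher and 1 lower, and 3 lower without E16.5 replicate 2 or after quantile normalisation. The 53.8% called lay between the 39.4% of all genes and the 61.5% of genes of at least median brightness. *Slc48a1*, which moves haem out of lysosomes, rose by 1.67 ± 0.08 (limma adjusted p = 3.13e-08), and *Blvra*, a biliverdin reductase, by 0.92 ± 0.09 (limma adjusted p = 1.01e-05). *Lrp1*, a receptor with many ligands that include the haem carrier haemopexin, had a change of -1.85 ± 0.10 (limma adjusted p = 1.18e-07). *Hmox1*, the inducible haem oxygenase, read 8.89, 8.81 and 8.82 at E14.5, 8.36, 8.30 and 8.24 at E15.5, and 8.52, 8.83 and 8.36 at E16.5, with a change of -0.27 ± 0.11 over both days (limma adjusted p = 0.0841). Without E16.5 replicate 2 that change was -0.40 and *Hmox1* was called lower (limma adjusted p = 0.00125).

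Of 8 transcription regulators tied to haem and iron, 5 were higher and 1 lower, and 3 lower without E16.5 replicate 2 or after quantile normalisation. The share called was 75%, beside 39.4% of all genes and 61.5% of genes of at least median brightness. *Ppargc1a*, a coactivator of mitochondrial genes known to raise *Alas1* in mouse liver, read 7.14, 6.86 and 6.91 at E14.5, 9.37, 9.41 and 9.41 at E15.5, and 10.13, 10.22 and 10.19 at E16.5. It rose by 3.21 ± 0.09 over both days (limma adjusted p = 1.56e-09). *Epas1*, which encodes the hypoxia factor HIF-2α, rose by 1.05 ± 0.08 (limma adjusted p = 1.44e-06). *Nr1d1*, a haem-binding nuclear receptor, and *Nfe2l2*, the oxidative stress factor NRF2, rose by 0.67 ± 0.09 and 0.54 ± 0.10 (limma adjusted p = 0.000173 and 0.00129). *Nrf1*, the factor named with the site printed for *Alas1*, changed by -0.22 ± 0.10 (limma adjusted p = 0.121), and by -0.34 without E16.5 replicate 2, where it was called lower (limma adjusted p = 0.00192). *Bach1*, a haem-binding repressor, had a change of -0.35 ± 0.09 (limma adjusted p = 0.0108). *Nrf1* and *Bach1* were named after their values were seen.

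**Figure D4:**
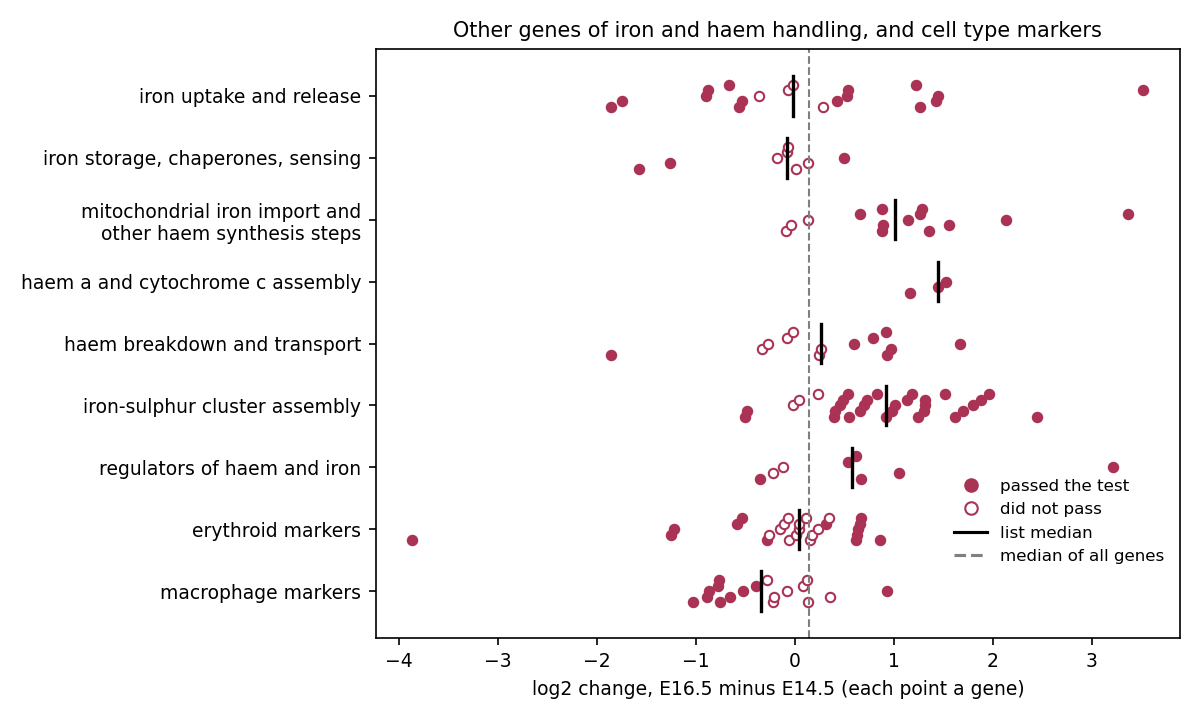
Log2 change at E16.5 minus E14.5 (horizontal axis) of every measured gene (points) in each list of iron and haem genes and in the erythroid and macrophage markers, filled where the limma test was passed, with the list median as a bar and the median of all genes as a dashed line. Haem synthesis, haem use and iron-sulphur assembly lie mostly to the right of 0, iron uptake spreads to both sides, the erythroid markers lie on either side of 0, and most macrophage markers lie below it.

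Red cells and their precursors also carry *Tfrc* and the haem enzymes, so their markers were followed in the same arrays. Of 26 erythroid markers measured, of 29 listed, 7 were higher and 6 lower at E16.5 than at E14.5, with a median change of 0.04. The share called was 50%, beside 39.4% of all genes. The summed linear level of the erythroid markers was 9439 to 10300 at E14.5, 9086 to 9453 at E15.5 and 9777 to 10761 at E16.5. The bulk of it came from *Hba-a2*, an adult alpha globin, which changed by 0.04 ± 0.08 (limma adjusted p = 0.676). Without *Hba-a2* the sum was 3009 to 3381 at E14.5, 2735 to 2790 at E15.5 and 2937 to 3777 at E16.5, where the highest value was that of E16.5 replicate 2. *Hbb-y* and *Hba-x*, embryonic globins, had changes of -3.86 ± 0.17 and -1.22 ± 0.08 (limma adjusted p = 1.95e-08 and 5.17e-07), and *Ank1*, a red cell membrane protein, of -1.25 ± 0.09 (limma adjusted p = 9.87e-07). *Hbb-bs*, an adult beta globin, rose by 0.86 ± 0.15 (limma adjusted p = 0.000822). No defining marker is at 0, since RMA gives every gene a value above 0. Without E14.5 replicate 1, 4 markers were higher and 6 lower. The part of red cells in the values of the 10 genes was not tested.

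The macrophage markers with the clearest changes over the stages were *Mrc1*, *Adgre1*, *Csf1r* and *Itgam*, and each was lower at E16.5 than at E14.5. *Cd163*, the haemoglobin scavenger receptor, named after its values were seen, went the other way at dim levels and was 0.93 ± 0.15 higher (limma adjusted p = 0.000479), or 0.73 higher without E16.5 replicate 2. The changes of the first 4 were -1.03 ± 0.09, -0.86 ± 0.10, -0.75 ± 0.09 and -0.39 ± 0.08 (limma adjusted p = 5.42e-06, 3.95e-05, 6.35e-05 and 0.00258). Of 7 hepatocyte markers, 2 were higher and 0 lower, or 28.6% beside 39.4% of all genes, with a median change of 0.14. Their summed linear level was 110 to 137 over the 9 arrays, and 0 were higher without E14.5 replicate 2. The summed linear level of the brown adipocyte markers was 6865 to 7918 at E14.5, 14737 to 15166 at E15.5 and 22959 to 23804 at E16.5. That of the skeletal muscle markers was 18150 to 18666 at E14.5, 8850 to 10764 at E15.5 and 7480 to 10518 at E16.5. Both moved over the same stages, and their part in the changes of the 10 genes was not tested.

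The genes most like each of the 10 over the 9 arrays were found by Pearson's r among 12987 named genes of at least median brightness, which share the same arrays and the same stages. For *Tfrc* they were *Pnpla2*, *Adipor2* and *Gpx8*, with r of 0.9994, 0.9992 and 0.9990. *Pnpla2*, the triglyceride lipase of fat cells, was 3.51 higher on the first day and 0.88 higher on the second. For *Alas1* they were *Bola3*, *Cbr4* and *Ecsit*, at 0.9991, 0.9987 and 0.9987, and *Bola3* is also among the iron-sulphur genes. For *Fech* they were *Fam120aos*, *Abhd4* and *Acp6*, at 0.9977, 0.9974 and 0.9973. *Aco1* was most like *Nmt2*, *Pgam1* and the haem a synthesis gene *Cox10*, at 0.9930, 0.9912 and 0.9882. For *Fth1* they were *Gpr146*, *Sdc4* and *Usp2*, at 0.9892, 0.9891 and 0.9888.

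The genes with small or uneven changes had partners with lower r. *Slc11a2* was most like *Edem1*, *Oraov1* and *Ptger1*, at 0.9862, 0.9855 and 0.9825. *Slc40a1* was most like *Itprip*, *Zdhhc14* and *Rnf215*, at 0.9838, 0.9836 and 0.9765. For *Ireb2* they were *Psmc1*, *Tbc1d19* and *Tbpl1*, at 0.9752, 0.9737 and 0.9699. *Cpox* was most like *Nudt21*, *Tmx1* and *Smek1*, at 0.9660, 0.9624 and 0.9622, and *Ppox* like *Rph3a*, *Adamts18* and *Mrgprg*, at 0.9261, 0.9252 and 0.9246. Among the 10 genes themselves, *Alas1* and *Fech* had an r of 0.98, *Tfrc* and *Aco1* 0.97, and *Tfrc* and *Alas1* 0.96. *Tfrc* and *Slc40a1*, the entry and the exit of iron, had -0.70, *Aco1* and *Ireb2* -0.22, and *Ppox* and *Cpox* 0.38. These are descriptions over 9 arrays in 3 stages, with no test. Every r includes E16.5 replicate 2, the array that stands apart, and r without it was not computed. The second-day changes of *Psmc1*, *Rnf215* and *Smek1* were 0.11, -0.05 and -0.12 with that array. Without it they were -0.00, -0.25 and -0.23. For genes with small changes, a high r may therefore reflect that array as much as the stages.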

How the data were processed

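The samples were 9 arrays (MoGene-2_0-st), 3 each of E14.5, E15.5 and E16.5. The deposited values were on a log2 scale. The submitters' processing notes name Partek 7.0 and RMA, a method that subtracts background, equalises the distributions of arrays and combines probes, and that compresses changes of dim genes. How probe sets were joined to a single value per symbol, the annotation and the genome build are not given in the sources used here. The number of arrays limits the precision.

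All 30915 genes were fitted with limma 3.58.1 (R 4.3.3; lmFit and eBayes, 2-sided), stage as the only term and all 9 arrays in the fit. The p-values were adjusted by Benjamini-Hochberg over all genes, with a threshold of 0.05 for a call. Intervals are 95% from the moderated test with 6 residual and 4.59 prior degrees of freedom. The fit was run on simulated data with far fewer changed genes than were called here and with no outlying array. That run does not check the calls in these data. The 10 genes and all gene lists were chosen with earlier results of these data known. Named genes were the 10, and for each of the 10 the 3 most alike genes. The 4 genes with the smallest p over the 3 stages were named from each of the iron and haem, erythroid and macrophage lists. Exceptions are stated, and *Alad*, *Uros*, *Urod*, *Hmox1* and *Hba-a2* were also named outside this rule. Some genes of the lists are counted but not reported here by name. Correlations of deviations between arrays with the same replicate number ran from -0.13 to 0.10, so numbers were not used to pair arrays. Alternatives were quantile normalisation, median centring, a brightness filter, a trended robust variance, fits of 6 arrays, a replicate block and leaving out each array. The letters GCATGCG replaced a longer form of the same site after matches had been seen. Promoter motifs were counted in Python 3.11.15.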

Additional observations from a re-analysis of the deposited data

Results flagged for a closer look

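The change of the second day minus the change of the first day was tested for the iron and haem genes other than the 10, since a day with a large change need not be followed by another. The 2 changes share the E15.5 arrays, so a deviation of those arrays moves them in opposite directions. Of all genes, 5.21% passed this test (limma, adjusted p under 0.05). The lists held 96 genes other than the 10. Those reported here that passed the test were 7, and no excess over the share of all genes is claimed. They follow. *Ppargc1a* had a difference of -1.65 (limma adjusted p = 0.000269), with 2.43 on the first day and 0.78 on the second. *Mfsd7c*, the older symbol of the haem transporter family gene *Flvcr2*, had -1.66 (limma adjusted p = 0.00123), with 0.82 on the first day and -0.84 on the second, so that its change over both days was -0.02, or -0.16 without E16.5 replicate 2. *Hmox1* had 0.82 (limma adjusted p = 0.0385), with -0.54 and then 0.27, and without E16.5 replicate 2 it had 0.68 (limma adjusted p = 0.00509), with -0.54 and then 0.14. *Epas1* had 0.65 (limma adjusted p = 0.0239), with 0.20 and then 0.85, and *Tfr2* had 0.73 (limma adjusted p = 0.0363), with 0.25 and then 0.98. *Slc46a1*, a folate carrier also studied for haem, had 0.81 (limma adjusted p = 0.0323), with -0.27 and then 0.54, and *Bmp6*, a signal that raises hepcidin in the liver, had 0.80 (limma adjusted p = 0.0498), with -0.73 and then 0.07. As a choice made after seeing the data, each array was left out in turn: the calls of *Ppargc1a* and *Mfsd7c* held in every case, whereas those of *Hmox1*, *Epas1*, *Tfr2*, *Slc46a1* and *Bmp6* were lost without any E15.5 array, with limma adjusted p from 0.074 to 0.214. Those of *Hmox1*, *Epas1*, *Tfr2* and *Slc46a1* were also lost without any E14.5 array, that of *Bmp6* without E14.5 replicate 2 or 3 and without E16.5 replicate 1 or 3, that of *Hmox1* without E16.5 replicate 1 and that of *Slc46a1* without E16.5 replicate 3. Without E16.5 replicate 2 all 7 calls held.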

How the results depend on the processing

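No change of sign with a call was seen for any of the 10 genes. Of their 450 changes under alternatives, 430 kept their call status, 4 lost a call and 16 gained one; the cause was not tested. At E15.5 against E14.5, 2803 genes were higher, and 4546 with only the 6 arrays of those stages. There, 1 of the 10 was lower (*Slc40a1*) in place of 0, with quantile normalisation, median centring or 6 arrays. At E16.5 against E15.5, 2615 genes were lower, and 3975 with quantile normalisation and 4039 with median centring. Of the 96 other iron and haem genes 7 were lower, beside 8.46% of all genes, and 12 with quantile normalisation. Over all genes the share of calls that were higher was 57.0%, and 46.2% with median centring and 47.7% with quantile normalisation. At E16.5 against E14.5, 13 of the 96 were lower, beside 17.4% of all genes, and 21 with quantile normalisation. Of the 10, 1 was lower in place of 0 with quantile normalisation, median centring, the brightness filter or the trended robust variance.

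Leaving out each array in turn gave these ranges. At E15.5 against E14.5, 2162 to 4413 genes were higher, the highest without E16.5 replicate 2, and 0 to 1 of the 10 were lower. At E16.5 against E15.5, 1899 to 4196 genes were lower, the highest without E16.5 replicate 2, and 3 to 6 of the 10 were higher and 0 to 1 lower. At E16.5 against E14.5, 0 to 1 of the 10 were lower. The replicate block changed no call of the 10: at E15.5 against E14.5, 4 were higher and 0 lower, and over all genes 2715 were higher and 3359 lower. At E16.5 against E14.5 the block left 6 of the 10 higher. With 3 arrays a stage, their number limits what small changes can show.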
